A study of Mus musculus with 63 samples.

Results

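Ethanol was compared with saline in the male mice of a dorsal hippocampus series, in which 31 of 63 RNA libraries carry the code M for sex in their titles and labels. Of these 31 libraries, 16 came from mice injected with ethanol (EtOH, 1.5 g/kg) and 15 from mice injected with saline (SAL). All were adolescents of the inbred strains C57BL/6J or DBA/2J, and were either fear conditioned (FC) or kept as unconditioned controls (noFC). Each of the 8 combinations of strain, conditioning and drug held 4 libraries, except fear-conditioned C57BL/6J mice given saline, which held 3. The labels name no mutant allele or transgene. They do not say whether a library is a single animal, so p-values here measure only the spread between these libraries, and the time from injection to dissection is not given in the sources used here.

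Ethanol acts on many membrane proteins, and in hippocampus it is known for enhancing GABA-A receptor currents and inhibiting NMDA receptors. Firing neurons switch on immediate early genes through calcium, the kinase ERK and the factors CREB and SRF, and ERK also induces its own inhibitors, among them dual-specificity phosphatases and Sprouty proteins. FoxO factors are held out of the nucleus by PI3K and Akt signalling, and heat shock factors raise chaperones when proteins misfold.

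Total gene counts ranged from 21027659 to 47673885 per library, with a median of 25785262 in saline and 27971725 in ethanol. Libraries of the same group correlated at 0.975 to 0.994 over genes on the log2 CPM scale (read counts brought to a shared library total with TMM factors). The Y-linked gene Ddx3y ran from 49.2 to 84.4 CPM and Xist stayed at or under 7.86 CPM, so no library went against its M label on these genes. Markers of hippocampal neurons were present throughout: the dentate granule cell markers summed to 431 to 749 CPM in saline and 354 to 727 CPM in ethanol. Choroid plexus, a tissue next to the hippocampus, was carried into some libraries. Its 15 markers summed to between 241 and 17741 CPM in saline (median 386) and between 237 and 11425 CPM in ethanol (median 1093), and none of them was at 0 in any library.

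Few genes differed between the drugs, and the differences were small. At an adjusted p under 0.05 (edgeR quasi-likelihood test with strain and conditioning as terms, Benjamini-Hochberg over 19583 genes), 14 genes were called, which is 0.0715% of those tested. Of these, 7 rose with ethanol (0.0357%) and 7 fell (0.0357%). The genes that fell were the activity gene Arc, the ERK phosphatase Dusp6, the FoxO target Depp1, the chaperones Hsph1 and Dnajb5, the ubiquitin ligase Trim65 and the collagen-modifying enzyme P4ha1. The genes that rose were Zfp867, Bbc3, Nrarp, Pik3ip1, Sox12, Rsrp1 and Fam214a. Their absolute log2 differences ran from 0.15 to 0.77, and 1 of the 14, Depp1, exceeded 0.5. Over all genes tested the median log2 difference was 0.0059 and the median SE of a difference was 0.058. At an unadjusted p under 0.05 there were 1167 genes, 5.96% of those tested. In bulk tissue, fewer cells of a type and less RNA per cell cannot be told apart.

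**Figure D1:**
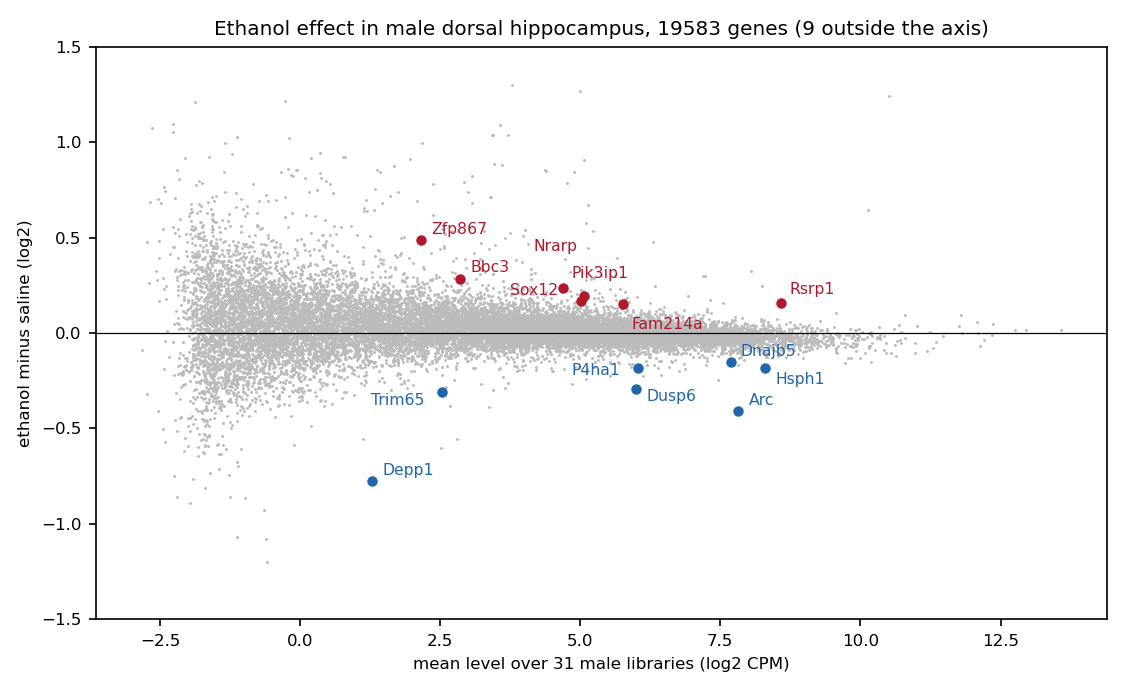
Log2 difference of ethanol minus saline (vertical axis) against the mean log2 CPM over the 31 male libraries (horizontal axis), 1 point per gene; called genes that rose are red and those that fell are blue. The 14 called genes lie at the edge of the cloud at their level, from -0.77 for Depp1 to 0.49 for Zfp867, and 9 genes lie outside the axis.

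Arc encodes a protein of the postsynaptic density that drives removal of AMPA receptors and is transcribed within minutes of neuronal activity (ENSMUSG00000022602, chromosome 15, 74669083 to 74672570, minus strand; all positions are on GRCm38). It stood at 192 to 321.96 CPM in the saline libraries (median 256) and at 156 to 284 CPM in the ethanol libraries (median 192). The ranges overlapped, but 15 of 16 ethanol libraries lay below the saline mean of their own strain and conditioning. Arc fell by 24.8% (log2 difference -0.41, SE 0.06, adjusted p = 0.0014, edgeR). The highest ethanol library, at 284 CPM, was a fear-conditioned C57BL/6J library, and conditioned groups stood higher under both drugs. In C57BL/6J the group means were 282 (FC) and 222 CPM (noFC) with saline and 221 and 167 CPM with ethanol. In DBA/2J they were 275 and 260 CPM with saline and 220 and 176 CPM with ethanol.

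The other activity genes did not pass the test. Of 20 immediate early transcription factors, 14 had a value below 0 (46.2% of all genes tested did), 9 of them at an unadjusted p under 0.05 (2.58% of all genes), and 2 of the 6 above 0 reached that level (3.38%). None was called, and their median log2 difference was -0.13. Egr1, a zinc finger factor induced by ERK, stood at 163 to 237 CPM in saline (median 185) and at 125 to 225 CPM in ethanol (median 157), with a log2 difference of -0.25 (SE 0.07, adjusted p = 0.34, edgeR). Its relative Egr2 gave -0.38 (SE 0.12), and the nuclear receptor Nr4a3 gave -0.20 (SE 0.05), with 15 of 16 ethanol libraries below their saline mean. Jun, an AP-1 subunit, gave -0.17 (SE 0.04). Fos, which pairs with Jun, stood at 15.5 to 32.3 CPM in saline (median 24.5) and 12.2 to 42.4 CPM in ethanol (median 20.03). The highest Fos library was thus an ethanol library, and the log2 difference was -0.20 (SE 0.09). Npas4, a factor that responds to calcium entry alone, gave -0.15 (SE 0.07). Btg2, an antiproliferative gene that p53 also induces, went the other way at 0.13 (SE 0.04).

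Among 20 synaptic and secreted products of activity, Arc was the 1 called gene, 10 values were below 0 and the median was -0.01. Bdnf, the secreted neurotrophin, ranged from 37.4 to 71.7 CPM in saline and from 37.5 to 67.7 CPM in ethanol (log2 -0.15, SE 0.07). Gadd45g, a stress-inducible nuclear protein, had medians of 15.9 CPM in saline and 18.1 CPM in ethanol (log2 0.22, SE 0.06). The dentate granule cell markers were below 0 in 8 of 8 cases (median -0.09, none at an unadjusted p under 0.05), and their part in the Arc difference was not tested.

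Dusp6 dephosphorylates ERK in the cytoplasm and is itself induced by ERK (ENSMUSG00000019960, chromosome 10, 99263231 to 99267489, plus strand). It stood at 61.3 to 83.4 CPM in saline (median 69.0) and at 45.4 to 69.3 CPM in ethanol (median 57.6). All 16 ethanol libraries lay below the saline mean of their group, and within C57BL/6J the drugs did not overlap, with ethanol at 45.4 to 60.6 CPM and saline at 61.3 to 72.0 CPM. Dusp6 fell by 18.3% (log2 -0.29, SE 0.04, adjusted p = 0.0014, edgeR). A further 7 ERK feedback genes of the 18 tested were lower at an unadjusted p under 0.05 (2.58% of all genes were) and none was higher, and 15 of 18 were below 0 (46.2% of all genes were; median -0.08). The nuclear ERK phosphatase Dusp4 had medians of 24.4 CPM in saline and 20.4 CPM in ethanol (log2 -0.20, SE 0.05, adjusted p = 0.24, edgeR). Dusp5, another nuclear ERK phosphatase, gave -0.18 (SE 0.05), and Spry4, an inhibitor of receptor tyrosine kinase signalling, gave -0.19 (SE 0.05). None of these 3 passed the test, although 14 or more ethanol libraries lay below the saline mean for each.

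**Figure D2:**
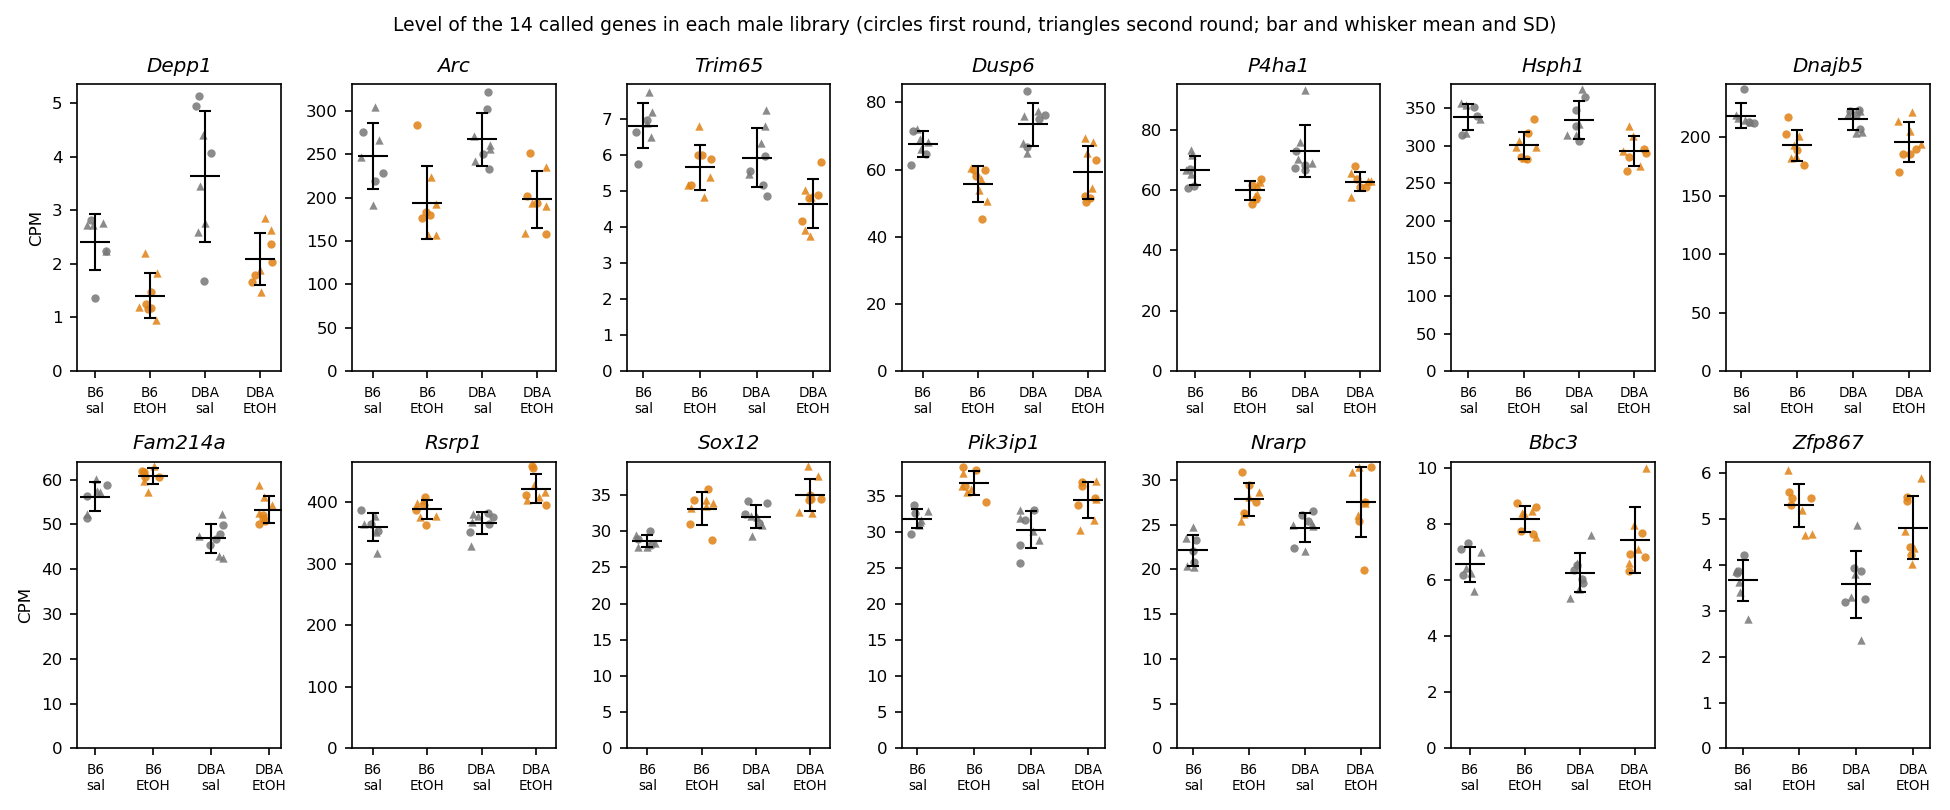
CPM (vertical axes, from 0) of the 14 called genes in every male library by strain and drug, with circles for the first and triangles for the second round of title numbers; bars and whiskers are mean and SD of 7 or 8 libraries. Ethanol and saline points overlap in most panels, and within C57BL/6J they separate for Dusp6, Pik3ip1, Nrarp, Bbc3 and Zfp867.

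Depp1 is a FoxO-induced regulator of autophagy and showed the largest difference of the 14 (ENSMUSG00000048489, chromosome 6, 116650609 to 116652794, plus strand). Its level was low, at 1.37 to 5.13 CPM in saline (median 2.76) and at 0.944 to 2.86 CPM in ethanol (median 1.72). Saline libraries of DBA/2J spread widely, from 1.68 to 5.13 CPM, and ethanol libraries of C57BL/6J held the lowest values. All 16 ethanol libraries lay below the saline mean of their group. Depp1 fell by 41.6% (log2 -0.77, SE 0.14, adjusted p = 0.012, edgeR).

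Pik3ip1, a membrane protein that inhibits PI3K, is also listed among FoxO-responsive genes and rose (ENSMUSG00000034614, chromosome 11, 3330401 to 3342971, plus strand). Saline libraries ran from 25.7 to 33.8 CPM (median 31.7) and ethanol libraries from 30.3 to 39.2 CPM (median 36.2). All 16 ethanol libraries were above the saline mean of their group, and in C57BL/6J the lowest ethanol library (34.2 CPM) stood above the highest saline library (33.8 CPM). The rise was 14.2% (log2 0.19, SE 0.03, adjusted p = 0.0043, edgeR). Of the 18 FoxO and energy stress genes tested, Pik3ip1 and Depp1 were thus called in opposite directions. Over the list 15 values were above 0 (53.8% of all genes were), with a median of 0.03. At an unadjusted p under 0.05, 1 was higher (3.38% of all genes) and 2 were lower (2.58%). The list median was 0.06 in the first round of title numbers and -0.0018 in the second. Bcl6, a repressor that FoxO induces, gave -0.17 (SE 0.05, adjusted p = 0.39).

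Bbc3, which encodes the BH3-only apoptosis inducer PUMA and is a p53 and FoxO3 target, rose (ENSMUSG00000002083, chromosome 7, 16308393 to 16318205, plus strand). It stood at 5.36 to 7.59 CPM in saline (median 6.36) and at 6.31 to 9.99 CPM in ethanol (median 7.72). In C57BL/6J all ethanol libraries (7.55 to 8.73 CPM) were above all saline libraries (5.602 to 7.33 CPM), whereas in DBA/2J the ranges overlapped. The rise was 21.9% (log2 0.29, SE 0.05, adjusted p = 0.016, edgeR). Among 15 p53 targets, 12 values were above 0 (53.8% of all genes were), 3 of them at an unadjusted p under 0.05 (3.38% of all genes), with a median of 0.09. Those 3 were Bbc3, Btg2 and Trp53inp1, a p53-induced stress and autophagy protein with medians of 26.7 CPM in saline and 28.9 CPM in ethanol (log2 0.22, SE 0.06, adjusted p = 0.21, edgeR). The list median was 0.12 in the first round of title numbers and 0.0016 in the second. With the mean level of the choroid plexus markers as a further term it was 0.04, and in females it was 0.02.

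The alpha-arrestins and Txnip, genes that respond to glucose and nutrient state, had 4 of 5 values above 0 over both strains (53.8% of all genes were; median 0.18). Txnip, which binds thioredoxin and restrains glucose uptake, ran from 19.3 to 56.0 CPM in saline (median 32.5) and from 31.8 to 51.1 CPM in ethanol (median 44.8). The single highest library was a saline one, but 15 of 16 ethanol libraries were above the saline mean of their group (log2 0.35, SE 0.10, adjusted p = 0.34, edgeR). Arrdc3, an arrestin-domain adaptor for membrane protein ubiquitination, had medians of 72.7 CPM in saline and 85.8 CPM in ethanol (log2 0.25, SE 0.06, adjusted p = 0.18). Arrdc2, another member of that family, gave 0.18 (SE 0.10), with -0.07 in C57BL/6J and 0.44 in DBA/2J. None of these was called by edgeR. The list median was 0.40 in the first round of title numbers and 0.06 in the second.

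With ethanol, values were below 0 in 23 of 24 cytosolic heat shock genes and in 18 of 20 endoplasmic reticulum stress genes. Calls were made for 2 chaperone genes. Hsph1 encodes an Hsp110 nucleotide exchange factor that works with Hsp70 to dissolve protein aggregates (ENSMUSG00000029657, chromosome 5, 149614287 to 149636376, minus strand). It stood at 307 to 376 CPM in saline (median 336) and at 266 to 335 CPM in ethanol (median 294), with 15 of 16 ethanol libraries below their saline mean. Hsph1 fell by 11.9% (log2 -0.18, SE 0.03, adjusted p = 0.014, edgeR). Dnajb5, an Hsp40 co-chaperone, ran from 203 to 241 CPM in saline (median 216) and from 170 to 222 CPM in ethanol (median 191; ENSMUSG00000036052, chromosome 4, 42949814 to 42959425, plus strand). Again 15 of 16 ethanol libraries were below, and Dnajb5 fell by 10.1% (log2 -0.15, SE 0.03, adjusted p = 0.027). That call was lost when any of 7 libraries was left out, with adjusted p-values up to 0.057.

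Of 24 cytosolic heat shock genes, 23 had a value below 0 (46.2% of all genes did), 14 of them at an unadjusted p under 0.05 (2.58% of all genes) and none above 0 at that level (median -0.09). Dnajb1, the main stress-inducible Hsp40, had medians of 49.5 CPM in saline and 41.6 CPM in ethanol (log2 -0.22, SE 0.05, adjusted p = 0.18, edgeR). Ahsa1, an activator of the Hsp90 ATPase, gave -0.11 (SE 0.03, adjusted p = 0.21). Inducible Hsp70 is made from Hspa1a and Hspa1b, near-identical copies whose reads can be assigned to either. Hspa1a ran from 4.46 to 20.7 CPM in saline (median 5.70) and from 2.99 to 6.77 CPM in ethanol (median 4.65). The saline maximum came from a single fear-conditioned DBA/2J library. With it the log2 difference was -0.60 (SE 0.17) and without it -0.41. Hspa1b gave -0.56 (SE 0.16), and -0.35 without that library.

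Of 20 endoplasmic reticulum stress genes, 18 values were below 0 (46.2% of all genes were), with a median of -0.05 and no call. At an unadjusted p under 0.05, 4 of them were lower (2.58% of all genes were). In the first and second round of title numbers, the cytosolic heat shock list had medians of -0.09 and -0.11. The endoplasmic reticulum list had 0.04 and -0.17. Hspa5 (BiP), the main Hsp70 of that compartment, had medians of 237 CPM in saline and 208 CPM in ethanol (log2 -0.17, SE 0.07). Hyou1, its nucleotide exchange factor, gave -0.08 (SE 0.03), and Ddit3, the CHOP factor of the unfolded protein response, gave -0.13 (SE 0.06). All 3 had adjusted p-values of 0.70 or 0.79 by edgeR.

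The remaining genes called for ethanol belong to no single pathway. Zfp867, which encodes a zinc finger protein, had the largest rise (ENSMUSG00000054519, chromosome 11, 59461197 to 59472474, minus strand). It stood at 2.37 to 4.87 CPM in saline (median 3.798) and at 4.02 to 6.07 CPM in ethanol (median 5.26), with all 16 ethanol libraries above their saline mean. The rise was 40.2% (log2 0.49, SE 0.07, adjusted p = 0.0019, edgeR), and the drugs did not overlap within C57BL/6J. Sox12, a SoxC transcription factor of neural development, ran from 27.8 to 34.2 CPM in saline (median 29.98) and from 28.7 to 39.1 CPM in ethanol (median 34.3; ENSMUSG00000051817, chromosome 2, 152393611 to 152398063, minus strand). All 16 ethanol libraries were above, and the rise was 12.4% (log2 0.17, SE 0.03, adjusted p = 0.014).

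Nrarp is a Notch target that inhibits Notch signalling in turn (ENSMUSG00000078202, chromosome 2, 25180758 to 25183339, plus strand). It stood at 20.3 to 26.6 CPM in saline (median 23.5) and at 19.9 to 31.5 CPM in ethanol (median 27.5). The lowest value of all was an ethanol library, an unconditioned DBA/2J one, while in C57BL/6J the drugs did not overlap. The rise was 17.6% (log2 0.23, SE 0.05, adjusted p = 0.048, edgeR), and the call was lost when any of 26 libraries was left out, with adjusted p-values up to 0.10. In the annotation 79.4% of the exonic bases of Nrarp are shared with Gm38287 on the opposite strand. The library kit keeps strand, but the strand setting of the counting is not given in the sources used here, and Gm38287 was not among the genes tested. Of 17 Notch pathway genes, 11 were above 0 (median 0.04). The Notch effectors Heyl (0.22, SE 0.10) and Hes5 (-0.20, SE 0.10) differed in sign, with neither called.

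Rsrp1 encodes an arginine and serine rich protein (ENSMUSG00000037266, chromosome 4, 134923592 to 134927671, plus strand). It stood at 317.1 to 388 CPM in saline (median 365) and at 364 to 459 CPM in ethanol (median 403). In DBA/2J the drugs did not overlap, with saline at 329 to 383 CPM and ethanol at 396 to 459 CPM. The rise was 11.7% (log2 0.16, SE 0.03, adjusted p = 0.016, edgeR). Fam214a had medians of 51.4 CPM in saline and 58.1 CPM in ethanol, within ranges of 42.4 to 60.2 and 50 to 62.9 CPM (ENSMUSG00000034858, chromosome 9, 74952884 to 75032468, plus strand). Its overall ranges overlapped, yet all 16 ethanol libraries were above the saline mean of their group, and it rose by 11.1% (log2 0.15, SE 0.03, adjusted p = 0.012).

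Trim65 encodes a RING-type E3 ubiquitin ligase (ENSMUSG00000054517, chromosome 11, 116121846 to 116131128, minus strand). It ran from 4.86 to 7.77 CPM in saline (median 6.52) and from 3.75 to 6.81 CPM in ethanol (median 5.11), with all 16 ethanol libraries below. Trim65 fell by 19.4% (log2 -0.31, SE 0.06, adjusted p = 0.041, edgeR). P4ha1, a catalytic subunit of the prolyl 4-hydroxylase that modifies collagen, ran from 60.6 to 93.1 CPM in saline (median 68.3) and from 55.3 to 67.8 CPM in ethanol (median 61.8; ENSMUSG00000019916, chromosome 10, 59323296 to 59373304, plus strand). All 16 ethanol libraries were below again, and P4ha1 fell by 12.1% (log2 -0.19, SE 0.04, adjusted p = 0.0498). Both stood close to the threshold: leaving out any of 23 libraries ended each call, with adjusted p-values up to 0.090 for Trim65 and 0.13 for P4ha1. The other 10 of the 14 genes, that is all but these, Nrarp and Dnajb5, were called in every one of the 31 fits that left out a library.

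Just outside the threshold stood Ccn1, a matricellular protein induced quickly in vessel and other cells. It ran from 3.11 to 6.56 CPM in saline (median 4.94) and from 3.72 to 15.7 CPM in ethanol (median 7.57). Ethanol libraries were more spread, and 13 of 16 were above the saline mean of their group in CPM (15 of 16 against the mean of log2 CPM). The log2 difference was 0.54 (SE 0.12, adjusted p = 0.076, edgeR), and 0.26 in C57BL/6J against 0.78 in DBA/2J. Apold1, an endothelial immediate early gene, gave 0.28 (SE 0.09, adjusted p = 0.50). Of 12 vascular immediate early genes, 8 were above 0 (53.8% of all genes were), with a median of 0.09. That median was 0.005 in C57BL/6J and 0.26 in DBA/2J, a difference not tested over the list. In the first round of title numbers it was 0.33 and in the second -0.11.

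Promoter sequences from the RefSeq table (GRCm38.p6) were searched because the called genes include targets of known factors. Of the 14 genes, 12 had an entry. In the 250 bases before the start site, the FoxO motif GTAAACA (either strand) occurred in 3 of 7 genes that rose (Bbc3, Rsrp1 and Sox12) and in 0 of 5 that fell, against 2.8% of 12850 genes tested with an entry. The E-box CACGTG occurred in Bbc3, Fam214a, Nrarp and Hsph1 (9.29% of all). The glucocorticoid receptor motif, an inverted repeat, occurred in Dusp6 (2.37% of all), and the SRE1-like motif TCACNCCAC in Rsrp1 (1.21% of all). No called gene matched the CRE TGACGTCA (2.85% of all), the CArG box (1.43%) or the heat shock element (0.428%). The heat shock pattern, searched as an exact match, occurred in 2 of 19 cytosolic heat shock genes with an entry. Its absence from Hsph1 and Dnajb5 therefore does not set them apart from that list. A match describes letters in this window and is not a binding site. The stretches below hold the FoxO matches and the glucocorticoid match in capitals, written along each gene's strand and without exon bases. They lie at chr2:152398064-152398296 (minus strand) for Sox12, chr4:134923375-134923591 (plus) for Rsrp1, chr7:16310011-16310260 (plus) for Bbc3 and chr10:99262981-99263230 (plus) for Dusp6.
Sox12: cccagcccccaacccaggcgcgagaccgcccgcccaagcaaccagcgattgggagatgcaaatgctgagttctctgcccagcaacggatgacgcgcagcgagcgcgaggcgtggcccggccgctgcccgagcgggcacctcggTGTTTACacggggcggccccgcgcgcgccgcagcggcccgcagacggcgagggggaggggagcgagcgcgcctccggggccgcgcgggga
Rsrp1: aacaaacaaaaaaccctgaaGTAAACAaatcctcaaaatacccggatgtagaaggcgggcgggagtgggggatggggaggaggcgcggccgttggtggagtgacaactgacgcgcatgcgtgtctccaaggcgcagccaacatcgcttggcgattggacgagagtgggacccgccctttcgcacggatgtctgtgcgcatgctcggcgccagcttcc
Bbc3: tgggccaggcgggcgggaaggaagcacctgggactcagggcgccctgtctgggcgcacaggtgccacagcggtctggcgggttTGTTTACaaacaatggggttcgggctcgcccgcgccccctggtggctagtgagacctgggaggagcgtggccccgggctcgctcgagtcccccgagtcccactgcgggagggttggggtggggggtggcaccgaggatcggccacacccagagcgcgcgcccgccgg
Dusp6: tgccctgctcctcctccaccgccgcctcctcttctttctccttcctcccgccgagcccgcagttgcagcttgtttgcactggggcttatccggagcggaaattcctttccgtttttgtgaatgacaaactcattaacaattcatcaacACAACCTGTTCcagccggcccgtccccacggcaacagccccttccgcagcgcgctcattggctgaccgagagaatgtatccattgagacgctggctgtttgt
In Sox12 the match lies 107 to 101 bases before the start and reads as the reverse complement, as it does in Bbc3, where it lies 167 to 161 bases before. In Rsrp1 it lies 230 to 224 bases before the start, at the far end of the window. The Bbc3 start site in this table opens no transcript of the GENCODE annotation used for the counts. Among 16 genes of the FoxO and energy stress list with an entry, Pik3ip1 and Depp1 included, none held GTAAACA in this window.

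For 13 of the 14 genes the log2 difference had the sign of the pooled one in all 4 strata of strain and conditioning. Nrarp showed no direction in unconditioned DBA/2J mice (0.00084, SE 0.09, with mean levels of 24.7 CPM under both drugs) and stood at 0.30 to 0.34 in the other 3 strata. Zfp867 was at 0.65 and 0.58 in conditioned C57BL/6J and DBA/2J mice and at 0.43 and 0.30 in unconditioned ones. Rsrp1 reached 0.32 in conditioned DBA/2J mice and 0.09 to 0.12 elsewhere. Depp1 ran from -0.96 to -0.63 over the 4 strata. Complete separation of 7 saline from 8 ethanol libraries in C57BL/6J occurred for 8 genes (0.0409% of those tested), 5 of them among the 14, and in DBA/2J for 3 genes (0.0153%), 1 of them among the 14.

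None of the differences between strata passed a test. The ethanol effect was not called as differing by strain for any gene in edgeR or DESeq2 (467 genes, 2.38%, at an unadjusted p under 0.05 in edgeR), nor by conditioning (1049 genes, 5.36%). For the 14 genes the adjusted p was at least 0.9999 by strain and 0.94 by conditioning. The smallest p by strain belonged to Abcc3, an organic anion transporter, at -0.20 in C57BL/6J and 0.43 in DBA/2J (difference 0.63, SE 0.16, adjusted p = 0.9999, edgeR). By conditioning it belonged to Rflna, a filamin-binding protein, at -0.58 in FC and 1.05 in noFC (difference -1.62, SE 0.39, adjusted p = 0.92), a gene at or under 0.947 CPM in every library. Kcnmb2, an auxiliary subunit of BK potassium channels, came next at 0.33 in FC and -0.42 in noFC (difference 0.75, SE 0.18). Its level ran from 1.77 to 4.56 CPM over all male libraries. Within a single strain or conditioning state no gene was called by edgeR, with 638 genes (3.26%) in C57BL/6J, 959 (4.9%) in DBA/2J, 1035 (5.29%) in FC and 1130 (5.77%) in noFC at an unadjusted p under 0.05.

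**Figure D3:**
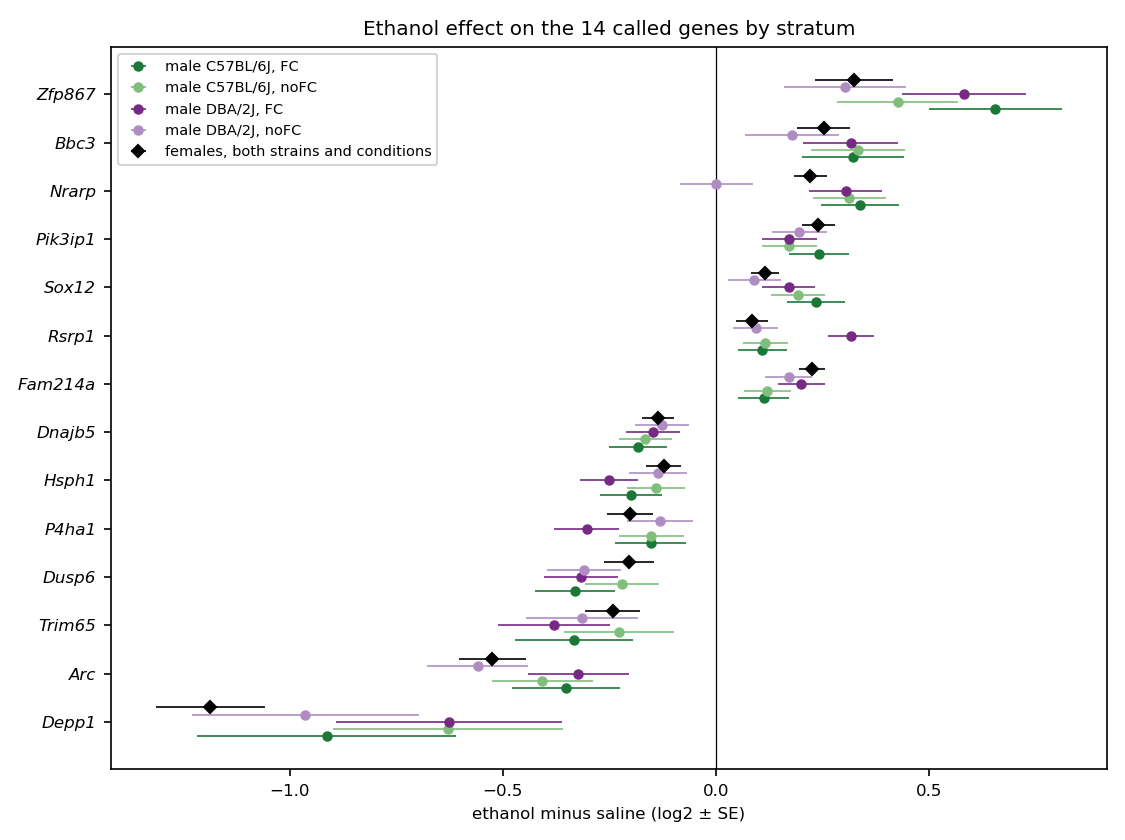
Log2 difference of ethanol minus saline (horizontal axis, with SE) for the 14 called genes (vertical axis) in the 4 male strata and in the female libraries. The points of each gene lie on 1 side of 0, except that Nrarp in unconditioned DBA/2J males lies at 0 (0.00084).

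The 32 female libraries, which played no part in choosing the 14 genes, gave the same sign for 14 of 14. In females 12 of 19199 genes were called (0.0625%), and 5 of the 14 were among them. Those were Depp1 (log2 -1.19, adjusted p = 2.0e-06), Fam214a (0.23, adjusted p = 0.00023), Arc (-0.52, adjusted p = 0.00089), Pik3ip1 (0.24, adjusted p = 0.0014) and Nrarp (0.22, adjusted p = 0.0070), all by edgeR. Zfp867 stood at 0.32 (SE 0.09) in females, Dusp6 at -0.20 (SE 0.06), Bbc3 at 0.25 (SE 0.06) and Hsph1 at -0.12 (SE 0.04). Absolute values were larger in males for 9 of the 14. Tested directly, the ethanol effect differed between the sexes for no gene in edgeR or DESeq2 (1011 of 19974 genes, 5.06%, at an unadjusted p under 0.05 in edgeR). Of the 14, Depp1 had the smallest p for that difference (male minus female 0.44, SE 0.18, adjusted p = 0.93, edgeR). Over all genes the smallest p was that of Zfp819, a gene under 1 CPM in every male library, at 0.99 in males and -0.23 in females when each sex was fitted alone (difference 1.57, SE 0.38, adjusted p = 0.93, in the joint edgeR fit that weights the 4 strata of each sex equally), followed by Pafah1b3, a subunit of a platelet-activating factor hydrolase (difference 0.38, SE 0.09).

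Receptor genes through which ethanol acts showed no call. Of 14 GABA-A receptor subunits, 10 had a value below 0, none at an unadjusted p under 0.05 (median -0.04). Gabra2, the alpha 2 subunit, ran from 91.9 to 264 CPM in saline and from 82.2 to 258 CPM in ethanol, a spread that separates the strains, and gave -0.05 (SE 0.06). Of 15 ionotropic glutamate receptor subunits tested, Gria1, an AMPA receptor subunit, was the single one at that level (-0.13, SE 0.06, adjusted p = 0.79, edgeR). Among 13 genes of ethanol and aldehyde metabolism, 12 were above 0 (53.8% of all genes were) with a median of 0.03. Aldh7a1, which oxidises lysine-derived aldehydes, gave the smallest p (0.07, SE 0.03, adjusted p = 0.73). The median of this list was 0.09 in the first round of title numbers and -0.04 in the second. With the mean level of the choroid plexus markers as a further term, 5 values were below 0 (median 0.0067). In females 6 values were below 0.

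Stress hormone, clock and sterol genes were mixed. Of 23 glucocorticoid-induced genes none was called, and their median was 0.04 (-0.07 in C57BL/6J and 0.18 in DBA/2J, a difference not tested over the list). That median was 0.20 in the first round of title numbers and -0.11 in the second. Fkbp5, a co-chaperone of the glucocorticoid receptor, gave -0.10 (SE 0.06), Sgk1, a kinase, gave 0.10 (SE 0.11), and Ddit4, an mTOR inhibitor, gave 0.10 (SE 0.04). Per1, which glucocorticoid and activity both induce, had a log2 difference of 0.0048 (SE 0.06), a sign that changed with the settings. Tob2, an antiproliferative gene, gave 0.19 (SE 0.06). Among 18 clock genes, the repressors Bhlhe40 (-0.15, SE 0.04) and Per2 (-0.16, SE 0.06) were lower at an unadjusted p under 0.05, and none was called.

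Cholesterol synthesis genes stood slightly higher: 19 of 20 values were above 0 (53.8% of all genes were), 9 at an unadjusted p under 0.05 (3.38% of all genes), and none below 0 reached that level (median 0.08). Insig1, the sterol sensor that retains SREBP, had medians of 47.5 CPM in saline and 54.0 CPM in ethanol (log2 0.17, SE 0.05, adjusted p = 0.46, edgeR). The enzymes Mvd (0.16, SE 0.05) and Dhcr7 (0.11, SE 0.04) and the sterol carrier Stard4 (0.11, SE 0.04) were no nearer the threshold. The list median was 0.13 in the first round of title numbers, 0.03 in the second and 0.02 in females. Oligodendrocyte markers, whose cells make much of the brain's cholesterol, were above 0 in 12 of 12 cases in males with a median of 0.04. That median was 0.12 in C57BL/6J and -0.03 in DBA/2J. In the first round of title numbers it was 0.27 and in the second -0.12. With the mean level of the choroid plexus markers as a further term, 10 of the 12 were below 0. The oligodendrocyte markers summed to 8094 to 16010 CPM in saline and 7308 to 18630 CPM in ethanol. Their part in the cholesterol values was not tested. Ribosomal protein genes (30, median 0.0006) and nuclear genes of oxidative phosphorylation (26, median -0.0028) had no member at an unadjusted p under 0.05. The ribosomal values were below 0 in 0 of 30 cases in C57BL/6J (median 0.045) and in 29 of 30 in DBA/2J (-0.035). The nuclear oxidative phosphorylation values were below 0 in 9 of 26 cases in C57BL/6J and 20 of 26 in DBA/2J. The difference by strain was not tested over either list.

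**Figure D4:**
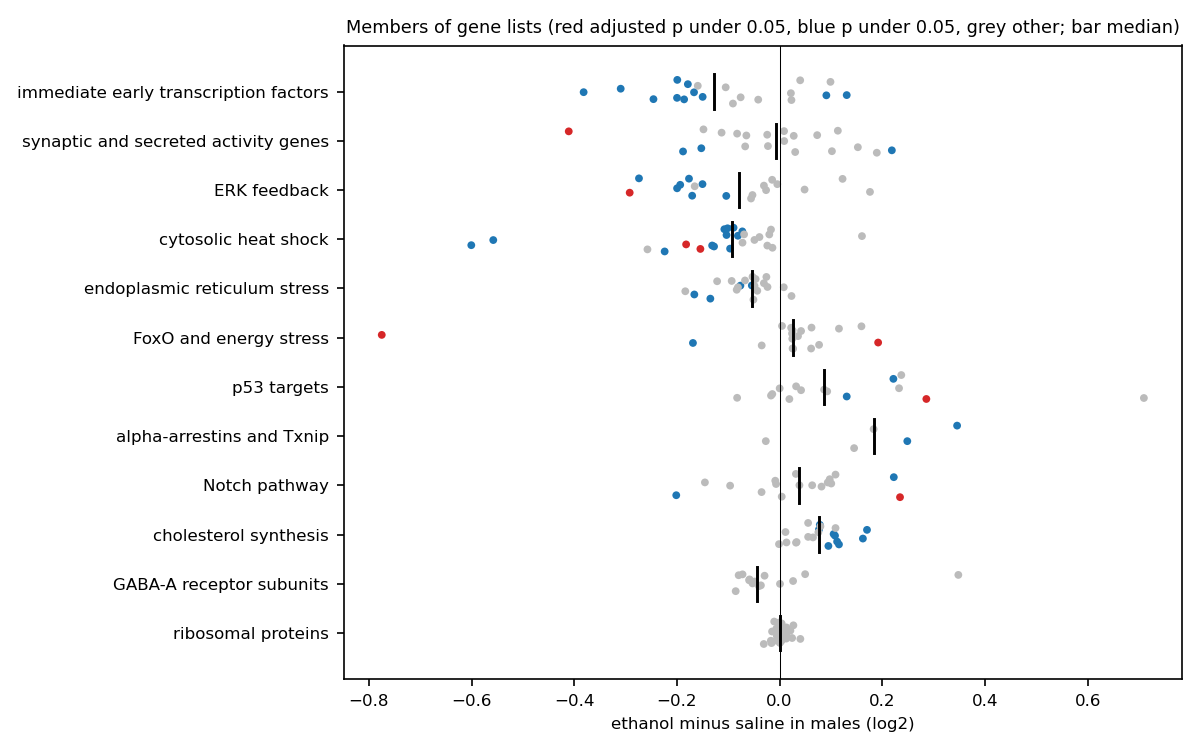
Log2 difference of ethanol minus saline in males (horizontal axis) for each member of 12 gene lists (vertical axis), 1 point per gene, red for genes called, blue for an unadjusted p under 0.05, bars at the list medians. Cytosolic heat shock genes lie to the left of 0 (median -0.09) and cholesterol synthesis genes to the right (median 0.08), while ribosomal protein genes cluster at 0.

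Transcript usage, meaning how a gene's counts divide over its transcripts, was tested on the deposited transcript estimates for 9302 genes (limma diffSplice after voom, with Simes and Benjamini-Hochberg). It was called for 30 genes, 0.323% of those tested, but in 21 of the 30 the leading transcript was estimated at 0 in at least 1 library. Sergef, a gene named for a secretion-regulating exchange factor, led without such zeros (adjusted p = 9.2e-06). Its transcript Sergef-201 took 4.92 to 21.0% of counts in saline (median 11.9%) and 15.1 to 27.7% in ethanol (median 19.2%). Trmt10b, a tRNA methyltransferase, had the same adjusted p, but its transcript Trmt10b-203 was at 0 in 5 saline libraries and in no ethanol library (mean shares 8.83% and 16.8%). Pds5b (0.0034), a cohesin regulator, and Gas2l1 (0.0055), a cytoskeletal linker, also rested on transcripts at 0 in 5 and 18 libraries.

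Rsrp1 was called in both tests (usage adjusted p = 7.5e-05, limma). Its transcript Rsrp1-204, annotated as retaining an intron, took 59.9 to 76.8% of counts in saline (median 72.7%) and 69.3 to 84.0% in ethanol (median 78.4%). The protein-coding Rsrp1-201 took 10.04 to 25.8% in saline (median 13.2%) and 3.98 to 15.7% in ethanol (median 8.66%). The shares overlapped between the drugs in both transcripts. In level, Rsrp1-204 rose by 0.30 on the log2 scale (SE 0.05, adjusted p = 0.022, limma over 33549 transcripts), while Rsrp1-201 gave -0.62 (SE 0.16, adjusted p = 0.39). Zfp867-201 was the other of 2 transcripts called in level (0.00596% of those tested), at 0.50 (SE 0.08, adjusted p = 0.015).

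**Figure D5:**
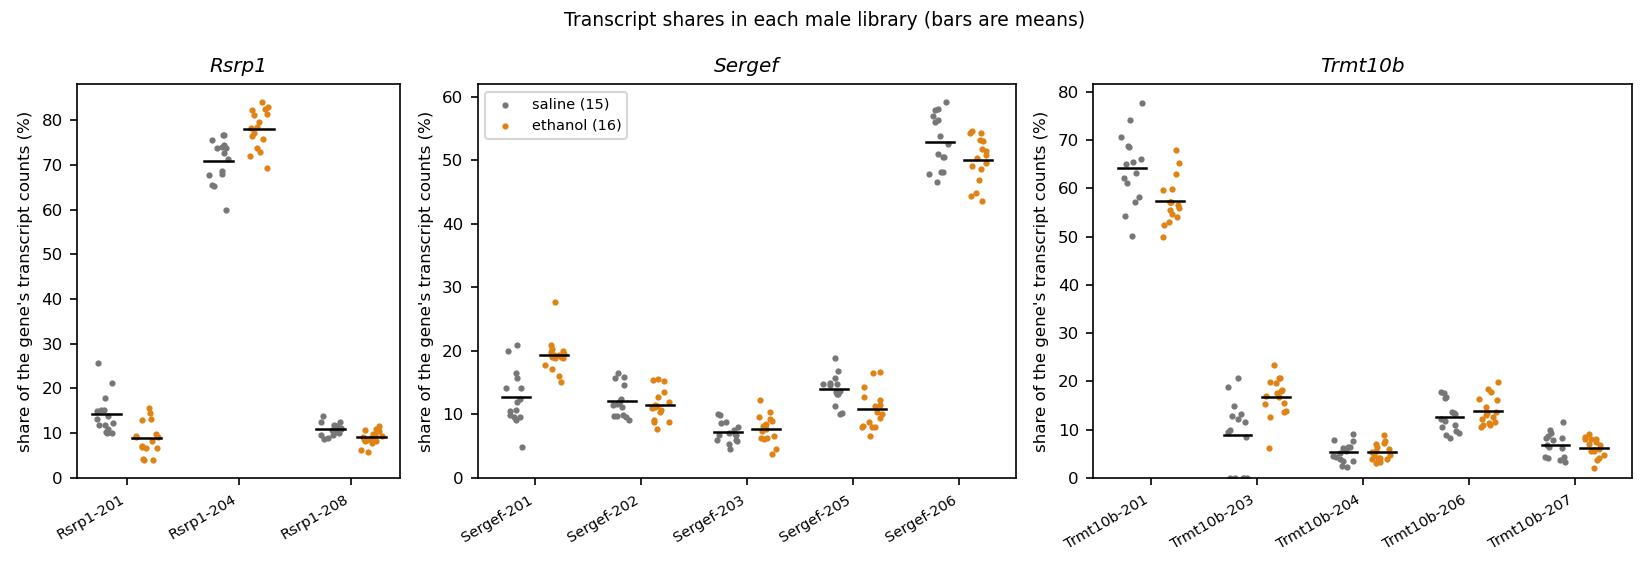
Percent of a gene's transcript counts (vertical axes, from 0) on each tested transcript of Rsrp1, Sergef and Trmt10b in the 15 saline and 16 ethanol male libraries; bars are means. Rsrp1-204 averages 70.9% in saline and 78.0% in ethanol, and 5 saline libraries lie at 0 for Trmt10b-203.

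The titles carry running numbers, whose lower and upper 8 values are called the first and second round here, and a letter whose match to drug is swapped between the rounds. Within a round, drug and letter cannot be told apart. All 14 genes kept their sign in each round, but neither round alone gave a call in edgeR. At an unadjusted p under 0.05 there were 3717 genes in the first round and 785 in the second. The main fit had 1167 of 19583 genes (5.96%) at that level. Each round was filtered for low counts on its own. The excess in the first round was not traced to a cause. Choroid plexus markers moved with drug in opposite directions in the rounds: their median log2 difference was 0.91 over all males (15 of 15 above 0, none at an unadjusted p under 0.05), 3.90 in the first round and -0.68 in the second. With their mean level as a further term, all 14 genes were called and 22 genes in all (0.112%). Ccn1 (adjusted p = 0.029, edgeR) and Dnajb1 (0.041) were among those 22. DESeq2 called 30 genes (0.153%), 14 higher and 16 lower, the 14 among them. It also called Ccn1 (adjusted p = 0.0047, DESeq2), Arrdc3 (0.026), Dnajb1 (0.026), Ahsa1 (0.042), Nr4a3 (0.043) and Trp53inp1 (0.046). The main edgeR fit called none of these.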

How the data were processed

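RNA of dorsal hippocampus was sequenced from 1 end after TruSeq stranded mRNA preparation, per the labels' protocols. The submitters' processing notes list HISAT2, fastp, Salmon, featureCounts and DESeq2 with GRCm38 and no versions. The authors deposited whole-number counts for 55401 genes, and estimated counts for 117135 transcripts, of which 46.8% of values were not whole. Groups came from the titles and labels, and every library column was matched by title. Symbols and positions came from GENCODE M21.

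From the gene counts, filterByExpr (minimum count 10, over the 8 male groups) kept 19583 genes, TMM scaled the libraries, and edgeR 4.0.16 (quasi-likelihood, two-sided) tested ethanol with strain and conditioning as additive terms. Differences by strain, conditioning and sex came from fits with 1 coefficient per group. The estimated counts were rounded and tested with limma 3.58.1, for transcripts with at least 10 counts in 3 libraries and 5% of their gene. Adjustment followed Benjamini and Hochberg, with calls under 0.05. Log2 CPM used a prior count of 2. R was 4.3.3 and alternatives included DESeq2 1.42.0. The scripts were tested on simulated data.

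Named genes were the called ones (up to 14 per direction, filled to 6), up to 4 per list, 5 per difference of effects and for transcript usage, and a set of 22 genes, without symbols of the Gm or Rik type. The members and the 37 gene lists were chosen with earlier results of these data known, so counts over a list are descriptions.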

Additional observations from a re-analysis of the deposited data

Results flagged for a closer look

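In groups of 4 libraries, the library farthest from the rest was compared with the others by Dixon's gap over the group's range, for the CPM of the 14 called genes. Of 98 groups and genes tested, 10 passed the 95% critical value, in 9 libraries, and chance gives about 1 in 20.

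In fear-conditioned C57BL/6J mice given ethanol, 1 library had 0.944 CPM of Depp1 against 1.16 to 1.196 in the others. In unconditioned C57BL/6J mice given saline, 1 library had 2.23 CPM of Depp1 against 2.72 to 2.82, and 241 CPM of Dnajb5 against 213 to 216. In unconditioned C57BL/6J mice given ethanol, 1 library had 54.0 CPM of Dusp6 against 59.9 to 60.6, and another had 34.2 CPM of Pik3ip1 against 36.1 to 36.4.

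In fear-conditioned DBA/2J mice given ethanol, 1 library had 27.5 CPM of Nrarp against 30.9 to 31.5, and another had 31.7 CPM of Pik3ip1 against 36.4 to 37.1. In fear-conditioned DBA/2J mice given saline, 1 library had 93.1 CPM of P4ha1 against 67.3 to 70.4. In unconditioned DBA/2J mice, 1 saline library had 34.2 CPM of Sox12 against 32.0 to 32.4, and 1 ethanol library had 3.93 CPM of Trim65 against 4.82 to 4.89.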

How the results depend on the processing

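The 14 called genes kept their sign under all 13 alternatives and all 31 fits that left out a library, in which 10 to 14 genes were called for ethanol and 0 to 0 for its differences by strain and by conditioning. Counts moved to 8 without a filter on low counts, to 0 in each round of titles alone and to 22 with the choroid plexus mean as covariate. They moved to 30 with DESeq2 and to 3 in the libraries poor in choroid plexus RNA (12 saline and 10 ethanol, chosen after seeing the data). The rounds and the poor set also hold fewer libraries, and the cause of these moves was not tested. Transcript usage gave 267 genes without the share minimum (24 of the 30 shared), where Rsrp1 had an adjusted p of 0.092, and 2 in the second round (0 shared). Whether title numbers pair the libraries was not tested. Over 45 pairs of libraries with a shared number, correlations of deviations ran from -0.54 to 0.49 (median 0.04). Of 31 libraries, 12 correlated best with a library of their own number. That count is given without a chance level, so it does not settle whether libraries are paired. The main fit held no term for the title number. As a replicate block the title numbers gave 17 calls, 13 of the 14 among them, and Trim65 was lost. For transcript usage the block gave 35 genes, 13 of the 30 among them, with Sergef, Trmt10b and Rsrp1 called and Pds5b (adjusted p 0.42) and Gas2l1 (0.72) not. Values that changed sign in the second round were Gabra2 0.016, Arrdc2 -0.10, Sgk1 -0.21, Gria1 0.015 and Per1 -0.12, in the first round Hspa5 0.041, and in the libraries poor in choroid plexus RNA Gabra2 0.0012 and Per1 -0.022. Per1 was also -0.0026 with the replicate block, -0.0011 with all 63 libraries, -0.013 with the choroid plexus covariate and -0.021 to 0.026 when a library was left out. The median SE was 0.058 and the smallest called difference 0.15 on the log2 scale, so smaller ones were not called with these 31 libraries.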

Other observations

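Cell type markers had no gene called for ethanol in males, where 46.2% of all genes had a value below 0 and 53.8% above. Neuronal lists leaned below 0: 6 of 8 CA1 markers (median log2 difference -0.09), 10 of 12 CA3 and CA2 markers (-0.03) and 8 of 12 interneuron markers (-0.03). Their first and second round medians were, in that order, -0.21 and 0.06, -0.06 and 0.02, and -0.04 and -0.03. With the choroid plexus covariate the interneuron median was 0.01. Glial lists leaned above 0, with 12 of 12 microglia markers (0.04), 8 of 8 oligodendrocyte precursor markers (0.07) and 8 of 12 astrocyte markers (0.01). The first and second round medians of these glial lists were, in that order, 0.07 and -0.0007, 0.18 and -0.02, and 0.04 and -0.02. In females the dentate granule cell and CA1 medians were above 0 (0.03 and 0.04). Endothelial markers had a median of 0.01, thalamus markers 0.04, neocortex markers 0.06, striatum markers 0.07, meningeal and fibroblast markers 0.21 and blood markers -0.16.

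The neocortex markers summed to 148 to 206 CPM in saline and 152 to 300 CPM in ethanol, so at least 1 ethanol library stood above all saline libraries. Enzymes of histone and DNA methylation (22 genes, median 0.0077) and cytokine and NF-kB genes (14 tested, median -0.0017) had no call. Among 13 mitochondrially encoded genes of oxidative phosphorylation, the median was 0.01 and none was called, but 3 low ones varied widely between libraries. The cytochrome oxidase subunit mt-Co3 ran from 0.421 to 8.49 CPM in saline and from 0.449 to 56.5 CPM in ethanol. The ATP synthase subunit mt-Atp6 ran from 0.574 to 9.85 CPM and from 0.626 to 223 CPM, and its neighbour mt-Atp8 from 0.153 to 6.94 CPM and from 0.0449 to 1.22 CPM.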
